A study of Mus musculus with 6 samples.

Results

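The genes of 4 CC chemokines and the gene for their shared receptor are described here in mouse melanoma: Ccl2, Ccl7, Ccl8 and Ccl12, and Ccr2. They were chosen by name, as the chemokines known to recruit monocytes and the receptor through which monocytes respond, and all 5 were found among the 31053 genes listed for every library. The cells came from whole YUMMER1.7 tumours, grown from a mouse melanoma cell line that carries many mutations and provokes an immune response. Each tumour followed a subcutaneous injection of 600000 cells into a male C57Bl/6 mouse, labelled as 6 to 8 weeks old. In the exercise group the mice ran at 12 m/min for 45 min a day on 14 days in a row once tumours had formed, and in the sedentary group they did not. Dissociated cells of 3 exercise and 3 sedentary tumours were captured as 1 droplet single-cell RNA library each, named here by group and number (exercise 5, 6 and 8, and sedentary 1, 2 and 3). Nothing was sorted, so tumour, immune and stromal cells stood in the same libraries, and every tumour in both groups came from the same cell line.

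CCR2 is a G protein-coupled receptor that leads inflammatory monocytes out of the bone marrow and into inflamed tissue. CCL2 is its best known ligand and is made by many cell types after inflammatory signals. CCL7 shares that receptor and also binds CCR1 and CCR3, CCL12 is a mouse chemokine without a direct human counterpart, and mouse CCL8 is known to act also through CCR8. In tumours, monocytes that arrive through CCR2 can become macrophages, a step in which they are known to lose CCR2 and Ly6C.

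The 6 libraries held 58351 barcodes, of which 51529 remained after limits on genes, unique molecular identifiers (UMIs) and mitochondrial share and the removal of 861 called doublets. Exercise 5 and sedentary 2 stood apart: the median cell had 5895 UMIs in exercise 5 and 6490 in sedentary 2, while the remaining libraries lay between 10489.5 and 12426, and 45.2% and 40.7% of the cells of this pair had at least 4 of 8 pan-immune markers, against 17.6% to 26.2%. Of 57964 distinct barcode sequences, 384 occurred in more than 1 library. Cells were put into classes by the number of detected markers from 14 lists, none of which holds a member, and 9517 cells (18.5%) took no class. The main non-immune population had 28414 cells, the macrophage-like class 4908, the MHC-II-high myeloid class 1766, the monocyte-like class 1295, and the T-like and NK-like classes 3458 and 962. Neutrophil-like cells numbered 636 and mast- and basophil-like cells 181. These 8 classes had at least 20 cells in each library. The label melanoma was checked on 7 pigment cell genes in the main population. Mlana, Tyr, Dct, Pmel, Sox10 and Tyrp1 stood at 0.00170 to 0.258 CPM (UMIs of the gene per 1000000 UMIs of the same cells), and Mitf, which other cell types also express, at 9.76 CPM, so this population is called non-immune here and not melanocytic. The MHC-II-high class was mixed, with 420.1 CPM of Mgl2 and 658 CPM of C1qa beside 42.0 CPM of the dendritic gene Xcr1, and 35.1% of its cells led by only 1 marker. That share was 18.8% for macrophage-like and 21.2% for monocyte-like cells.

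Ccl2 came mostly from the main non-immune population and Ccl8 and Ccl12 mostly from macrophage-like cells, while Ccl7 was divided between both. As the share of a gene's UMIs in a library (mean ± SD of the 6 libraries), the main population held 89.5 ± 3.33% of Ccl2 and macrophage-like cells 2.94 ± 0.635%. For Ccl7 the main population held 61.2 ± 9.18% and macrophage-like cells 28.7 ± 7.82%. Macrophage-like cells held 81.0 ± 5.65% of Ccl8 and 88.6 ± 2.78% of Ccl12. They contributed only 3.63 ± 1.30% of all UMIs, and the main population 85.0 ± 5.76%. The Ccr2 UMIs were spread over immune classes, with 32.6 ± 4.20% in macrophage-like, 16.2 ± 4.10% in MHC-II-high, 16.0 ± 7.74% in monocyte-like, 9.21 ± 4.46% in NK-like and 6.09 ± 4.19% in T-like cells, and 18.4 ± 1.79% in cells without a class. The main population held 1.21 ± 0.387% of them. When classes were taken from clusters in place of marker counts, the macrophage-like share of Ccr2 was 62.9%.

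For the class that held most of each gene, the main population's share averaged 90.2% in exercise and 88.8% in sedentary libraries (exact permutation p 0.7) for Ccl2 and 59.1% in exercise and 63.3% in sedentary libraries (exact permutation p 0.9) for Ccl7. The share of macrophage-like cells averaged 84.1% in exercise and 77.9% in sedentary libraries (exact permutation p 0.2) for Ccl8, 90.2% in exercise and 86.9% in sedentary libraries (exact permutation p 0.3) for Ccl12 and 34.9% in exercise and 30.3% in sedentary libraries (exact permutation p 0.2) for Ccr2. With 3 libraries against 3, no p of these two-sided tests can be under 0.1.

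**Figure D1:**
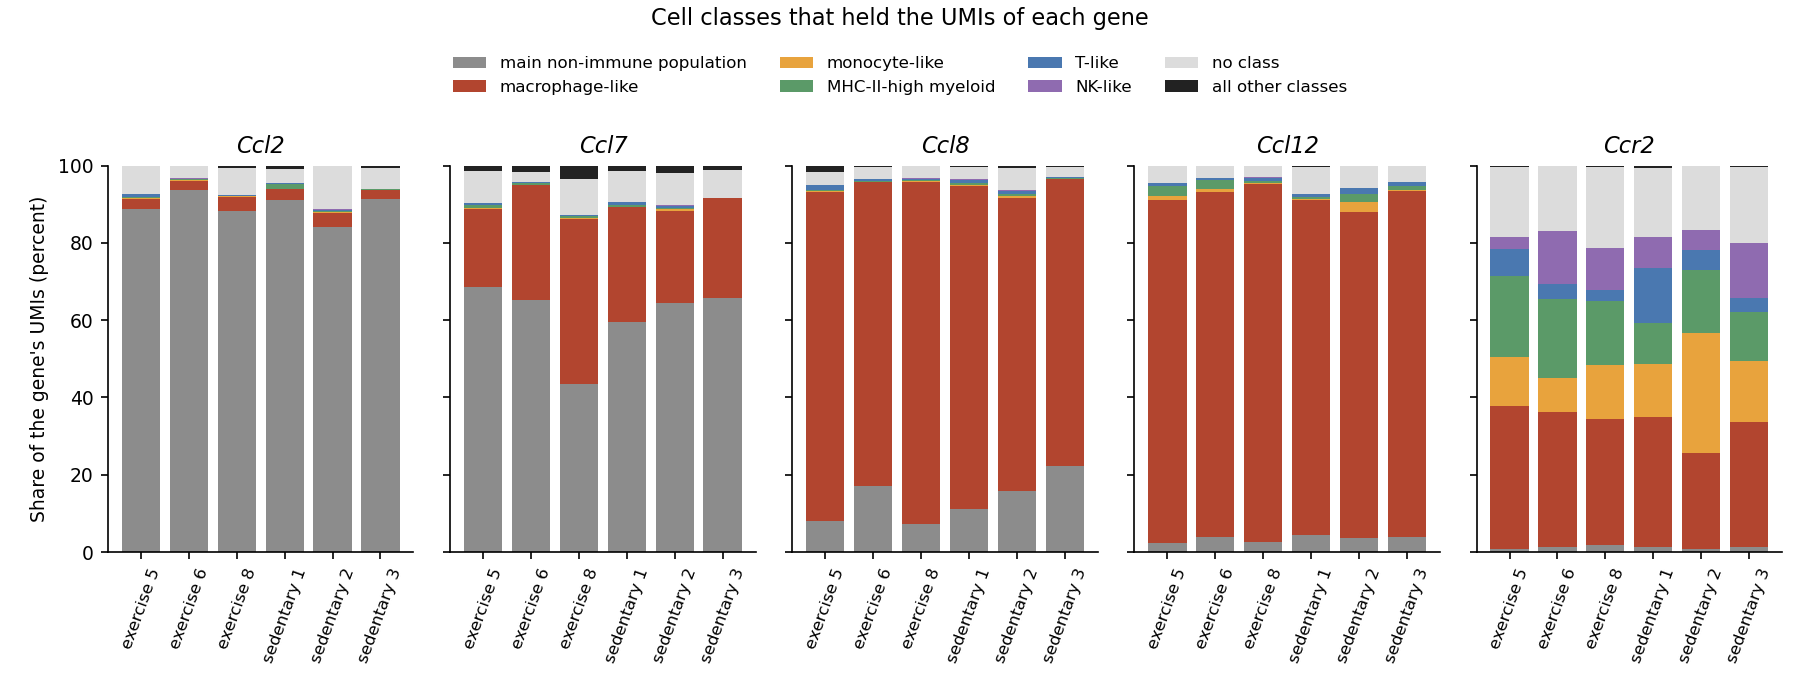
Share of each gene's UMIs (percent) held by each cell class, 1 stacked bar per library, exercise libraries left of sedentary libraries. The main non-immune population fills 84.1% to 93.7% of the Ccl2 bars, and macrophage-like cells fill 84.4% to 92.6% of the Ccl12 bars.

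Ccl2, the main ligand of CCR2, stood in the main population at 512, 149.6 and 127 CPM in exercise 5, 6 and 8, against 205, 406 and 222 CPM in sedentary 1, 2 and 3. Exercise 5 and sedentary 2 were highest, and the groups overlapped. The class means over 6 libraries were 359 ± 139.7 CPM in mast- and basophil-like cells (255 CPM without the highest cell of each library), 270.2 ± 154 CPM in the main population and 196 ± 67.1 CPM in macrophage-like cells, and no neighbouring pair in the order of the 8 classes differed beyond its spread (exact sign-flip tests over the 6 libraries, smallest p 0.0938). Monocyte-like cells had 78.3 ± 35.3 CPM, T-like cells 37.5 ± 25.4 CPM and NK-like cells 23.0 ± 13.2 CPM. The 79 fibroblast-like cells, too few to test, had a pooled 323 CPM, and 218 CPM without sedentary 3. In the main population Ccl2 was uneven: the 10% of its cells with the most Ccl2 UMIs held 70.3% to 85.8% of them, and 34.5% to 67.9% of the cells had none. The main population had a median of 17783 UMIs a cell. With every cell thinned to 1000 UMIs, 12.6% of its cells had Ccl2 (unthinned 46.5%). The share was 28.1% of mast- and basophil-like, 13.5% of macrophage-like and 2.60% of NK-like cells.

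Single cells set the spread of Ccl2 in the smaller myeloid classes. In sedentary 1, 1 cell of the MHC-II-high class held 267 of the 278 Ccl2 UMIs of that class, and 1 neutrophil-like cell held 134 of 149. These cells had 21565 and 15907 UMIs in all, where the medians of their classes in that library were 4808.5 and 1074. Without them the levels in sedentary 1 were 13.9 CPM in MHC-II-high and 70.8 CPM in neutrophil-like cells, in place of 342 and 654 CPM. Neither cell was called a doublet.

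Ccl7 was highest per UMI in the small mast- and basophil-like class, at 733 ± 229 CPM, followed by macrophage-like cells at 193 ± 24.1 CPM and the main population at 21.8 ± 18.0 CPM. In mast- and basophil-like cells it was 713, 517 and 794 CPM in exercise 5, 6 and 8, against 1083, 837 and 452 CPM in sedentary 1, 2 and 3, from 195 UMIs in all. In each library 1 cell held 23.1% to 56.0% of them, and without these cells the mean was 474 ± 213 CPM and the lowest library 259 CPM. With or without them, all 6 values were above every macrophage-like value, which lay between 166 and 226 CPM. The difference between these classes was 1.87 ± 0.15 on the log2(CPM + 1) scale (SE), and that between macrophage-like cells and the main population 3.40 ± 0.37, each in 6 of 6 libraries with an exact sign-flip p of 0.0312, the smallest that 6 libraries can give. Adjusted over the 35 neighbouring pairs of classes tested for the 5 genes, the p was 0.137, so no such pair passed. Since no p here can be under 0.0312, only many pairs at that value together could pass. For all 5 genes the adjusted p therefore cannot decide whether such a pair differs. Neighbours were also taken from the order of these same levels. The remaining 5 classes stood at 3.67 to 10.0 CPM and did not differ from their neighbours beyond their spread. After thinning to 1000 UMIs, 33.2% of mast- and basophil-like and 12.4% of macrophage-like cells had Ccl7 (unthinned 32.4% and 27.3%), against 0.441% of T-like cells, whose median depth was 2874 UMIs beside 994 and 4314. Thinning left out 48.0 exercise and 45.0 sedentary mast- and basophil-like cells, and 479.0 and 445.0 macrophage-like cells.

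Ccl8 and Ccl12 were the ligands of macrophage-like cells. Ccl8 stood there at 1919.5, 1897 and 2592 CPM in exercise 5, 6 and 8, against 2933, 1593 and 1109.8 CPM in sedentary 1, 2 and 3, and the groups overlapped. Its mean of 2007 ± 663 CPM compared with 12.5 to 57.9 CPM in the other 7 classes, a step of 5.89 ± 0.85 (log2, SE) over the next class, neutrophil-like cells, in 6 of 6 libraries (exact p 0.0312, adjusted 0.137). The neutrophil-like values came from 50 UMIs in all, with 1 in exercise 6 and 0 in sedentary 3. The size of this step therefore depends on the 1 added to CPM. Pooled, the few fibroblast-like cells had 330.1 CPM, with 181 of their 281 UMIs in exercise 5, and 169 CPM without it. Ccl12 averaged 486 ± 89.3 CPM in macrophage-like cells, 24.0 ± 12.1 CPM in monocyte-like cells (13.8 CPM without the highest cell of each library) and 0.784 ± 0.266 CPM in the main population. Its step from macrophage-like to monocyte-like cells was 4.4 ± 0.35, again in 6 of 6 libraries with the same p values. After thinning, 36.2% of macrophage-like cells had Ccl8 and 24.4% had Ccl12 (unthinned 52.4% and 43.2%). Among T-like cells, which are not known to make them, the shares were 2.74% and 0.926%. Monocyte-like and main-population cells had Ccl8 shares of 1.88% and 1.39%. Ccl8 shares of this size are not taken here as evidence of expression, and their source was not tested.

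The 4 ligand genes lie on one strand of mouse chromosome 11 (GRCm38), Ccl2 at chr11:82035571-82037453, Ccl7 at chr11:82045712-82047525, Ccl12 at chr11:82101845-82103400 and Ccl8 at chr11:82115185-82116799, all on the plus strand within 81.2 kb. Ccl11 lies between Ccl7 and Ccl12. Ccr2 is at chr9:124101950-124113557 on the plus strand. Ccl12 and Ccl8, the pair with the macrophage-like pattern, are neighbours with starts 13.3 kb apart, and the 250 bases before each start are shown because these genes were high in the same cells. They come from RefSeq promoters of build GRCm38.p6, which held 3 of the 5 genes (Ccl12, Ccl8 and Ccr2), and run 5′ to 3′ on the plus strand, with the motifs GGAAATCA and TATAAA in capitals.
Ccl12, chr11:82101595-82101844: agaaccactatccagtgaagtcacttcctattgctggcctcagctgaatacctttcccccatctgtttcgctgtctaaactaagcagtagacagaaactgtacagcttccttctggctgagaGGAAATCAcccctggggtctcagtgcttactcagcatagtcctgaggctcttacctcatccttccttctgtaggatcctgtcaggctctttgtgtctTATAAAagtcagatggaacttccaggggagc
Ccl8, chr11:82114935-82115184: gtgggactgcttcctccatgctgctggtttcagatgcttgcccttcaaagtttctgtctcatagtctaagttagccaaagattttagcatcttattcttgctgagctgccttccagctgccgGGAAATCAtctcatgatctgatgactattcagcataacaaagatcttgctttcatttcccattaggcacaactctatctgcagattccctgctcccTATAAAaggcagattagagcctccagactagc
A global alignment placed 150 identical bases among 230 aligned (65.2%) with 40 gap bases. The octamer GGAAATCA sits at bases -128 to -121 from the start in both; it is the longest run of bases identical at the same distance from both starts, was picked after reading these sequences, overlaps the GAGGAA match in Ccl12, and occurs on either strand in 0.983% of 32851 promoters of this length. TATAAA begins at -31 in Ccl12 and -32 in Ccl8 and occurs in 12.4% of promoters. GAGGAA, the core bound by the myeloid factor PU.1, matched at -130 to -125 in Ccl12 and on the minus strand at -240 to -235 in Ccl8, and occurs in 23.2%. GGGNNNNNCC, an NF-kB motif, and TGANTCA, an AP-1 motif, had no match in these windows and occur in 45.8% and 6.75% of promoters. These matches describe letters only; binding was not measured.

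Ccr2, the receptor, was highest in monocyte-like cells, which had 1189.6, 852 and 806 CPM in exercise 5, 6 and 8, against 721, 663 and 642 CPM in sedentary 1, 2 and 3. The mean of 812 ± 202 CPM was followed by 537 ± 86.4 CPM in NK-like, 439 ± 175 CPM in MHC-II-high, 284 ± 159 CPM in macrophage-like and 93.3 ± 41.5 CPM in T-like cells. Monocyte-like cells were above NK-like cells by 0.58 ± 0.12, MHC-II-high above macrophage-like cells by 0.70 ± 0.19 and macrophage-like above T-like cells by 1.57 ± 0.18 (log2, SE), each in 6 of 6 libraries (exact p 0.0312, adjusted 0.137). NK-like and MHC-II-high cells did not differ beyond their spread (exact p 0.125). Neutrophil-like cells had 21 and mast- and basophil-like cells 5 Ccr2 UMIs in all, and the main population was at 0.419 ± 0.261 CPM. After thinning to 1000 UMIs, Ccr2 was found in 46.8% of monocyte-like, 40.5% of NK-like, 31.1% of MHC-II-high, 18.5% of macrophage-like and 10.1% of T-like cells, against 0.0534% of the main population (unthinned 76% of monocyte-like cells and 0.916% of the main population). The 10% of monocyte-like cells with the most UMIs of it held 28.2% to 35.3%.

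Among T-like cells Ccr2 was higher where Cd4 was found. The 200 T-like cells with a Cd4 UMI and none of Cd8a or Cd8b1 had 424 ± 189 CPM, against 57.5 ± 46.5 CPM in 2804 cells with Cd8a or Cd8b1 and no Cd4. The Cd4 side was higher in 6 of 6 libraries (exact p 0.0312, adjusted 0.156 over 10 subset comparisons), with as few as 7 such cells in a library. The adjusted p values of these 10 comparisons have the limit given above for neighbouring classes.

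**Figure D2:**
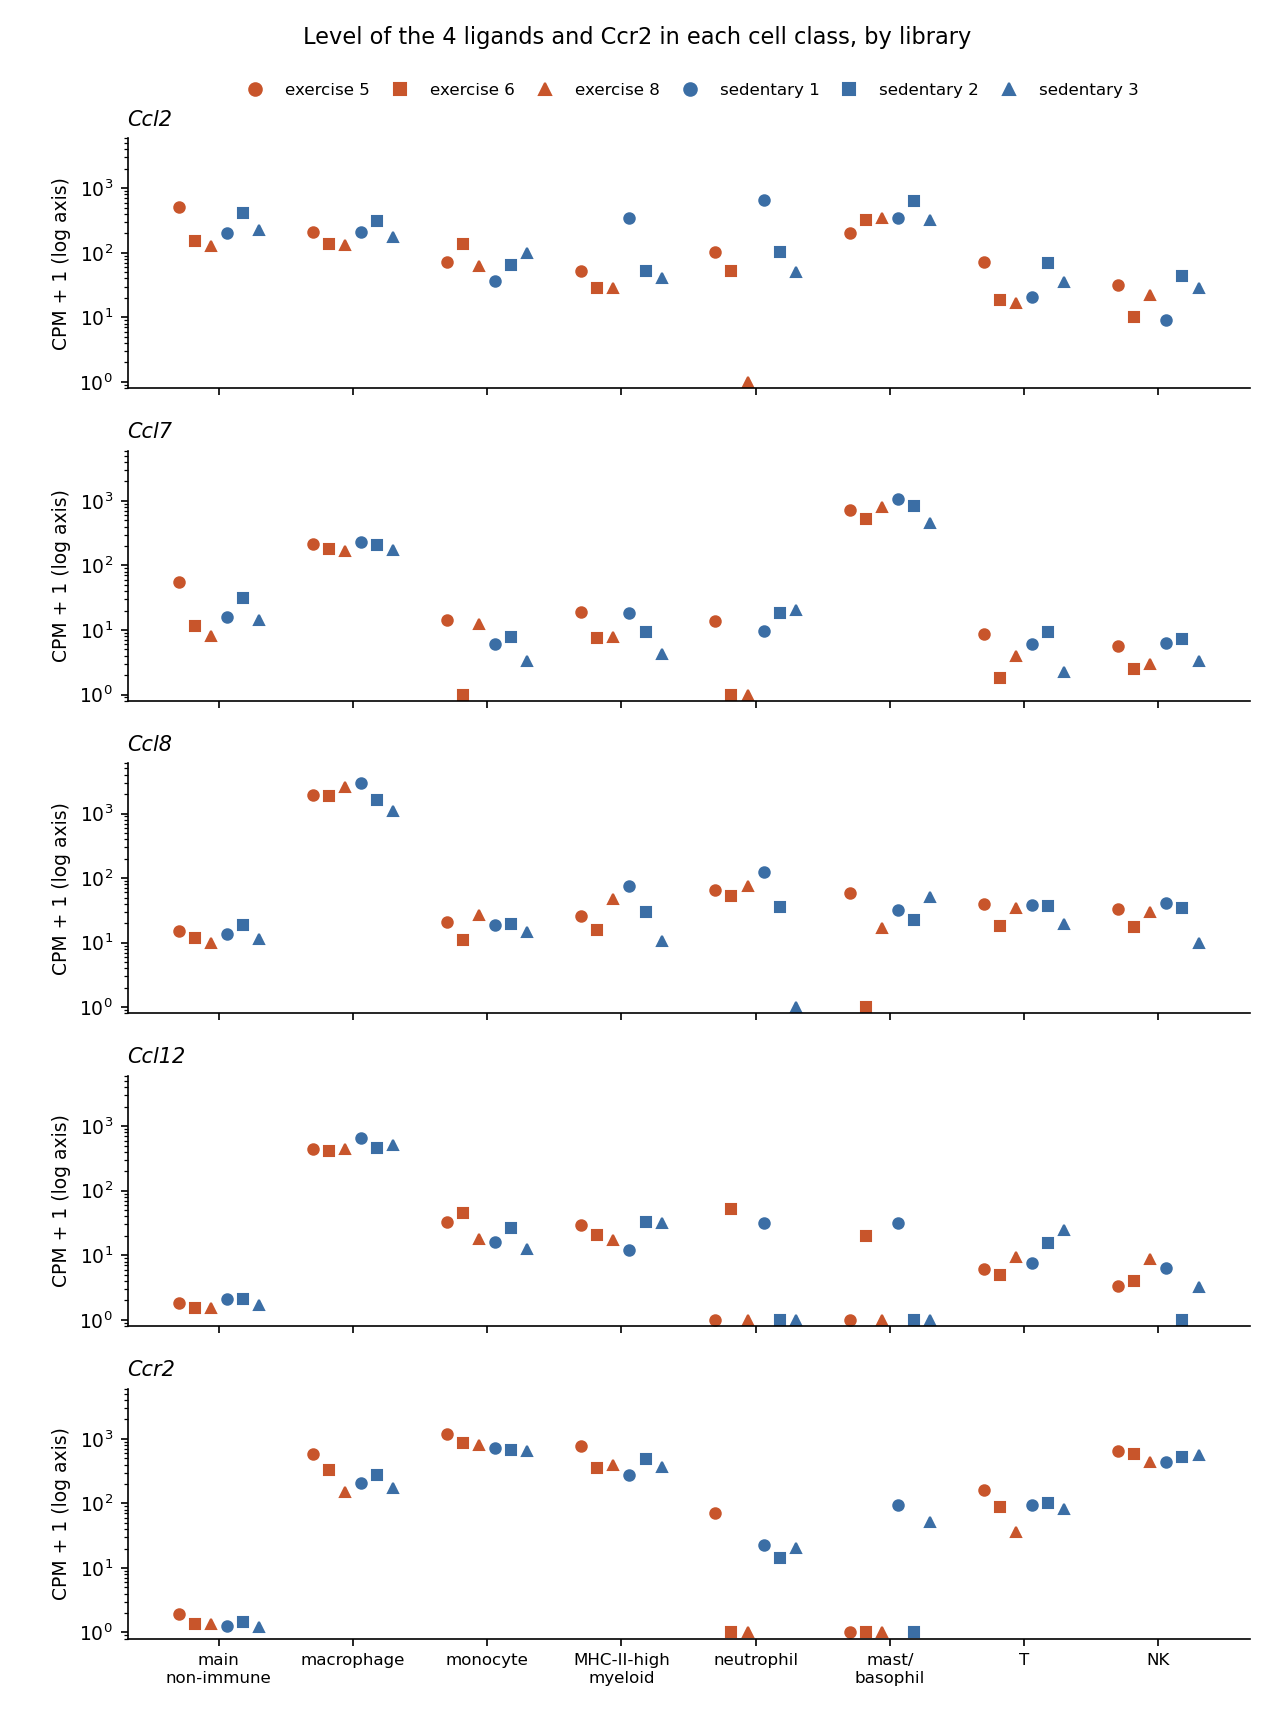
Level of each gene (CPM + 1, log axis) in the 8 classes with at least 20 cells in every library, 1 point per library, exercise libraries left of sedentary libraries in each class. Ccl8 and Ccl12 stand apart in macrophage-like cells (means 2007 and 486 CPM), Ccl7 is highest in mast- and basophil-like cells (733 CPM) and Ccr2 in monocyte-like cells (812 CPM).

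Macrophage-like and monocyte-like cells lie on one range of marker expression, so 6190 of them with at least 5 marker UMIs were also ordered by the monocyte share of their monocyte and macrophage marker UMIs. Along bins of 0 to 5%, 5 to 25%, 25 to 75% and 75 to 100% the receptor was higher and the ligands were lower. Ccr2 averaged 203, 439.9, 785 and 827 CPM in these bins. Ccl8 averaged 2483, 494, 55.4 and 15.2 CPM, Ccl12 579.8, 244, 68 and 25.8 CPM, Ccl7 224, 122, 32.3 and 5.33 CPM and Ccl2 209, 172, 77.8 and 74.3 CPM. The Ccl2 mean of the bin of 5 to 25% rested on sedentary 2 at 519.6 CPM, and was 102 ± 33.6 CPM without it. From the lowest to the highest bin Ccr2 rose by 2.27 ± 0.28 on the log2(CPM + 1) scale (SE), higher in 6 of 6 libraries. Ccl8 fell by 7.37 ± 0.29, Ccl7 fell by 5.78 ± 0.60, Ccl12 fell by 4.91 ± 0.61 and Ccl2 fell by 1.5 ± 0.28, each lower in 6 of 6 libraries. Every one of these exact sign-flip tests gave p = 0.0312, the smallest possible, and 0.0312 after adjustment over the 5 genes. In the highest bin Ccl7 was 0 CPM in exercise 6 and exercise 8, and Ccl12 2.89 CPM in sedentary 3. The sizes of the falls of Ccl7 and Ccl12 therefore depend in part on the 1 added to CPM. The decline of Ccl2 missed the threshold once MHC-II-high cells were added (adjusted p 0.0938). Only sedentary 1 was then higher in the highest bin, at 480 CPM against 218 CPM in the lowest. This is the library of the single MHC-II-high cell with 267 Ccl2 UMIs described above. Median depths of the bins were 4429, 4616, 3425 and 3327 UMIs a cell.

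**Figure D3:**
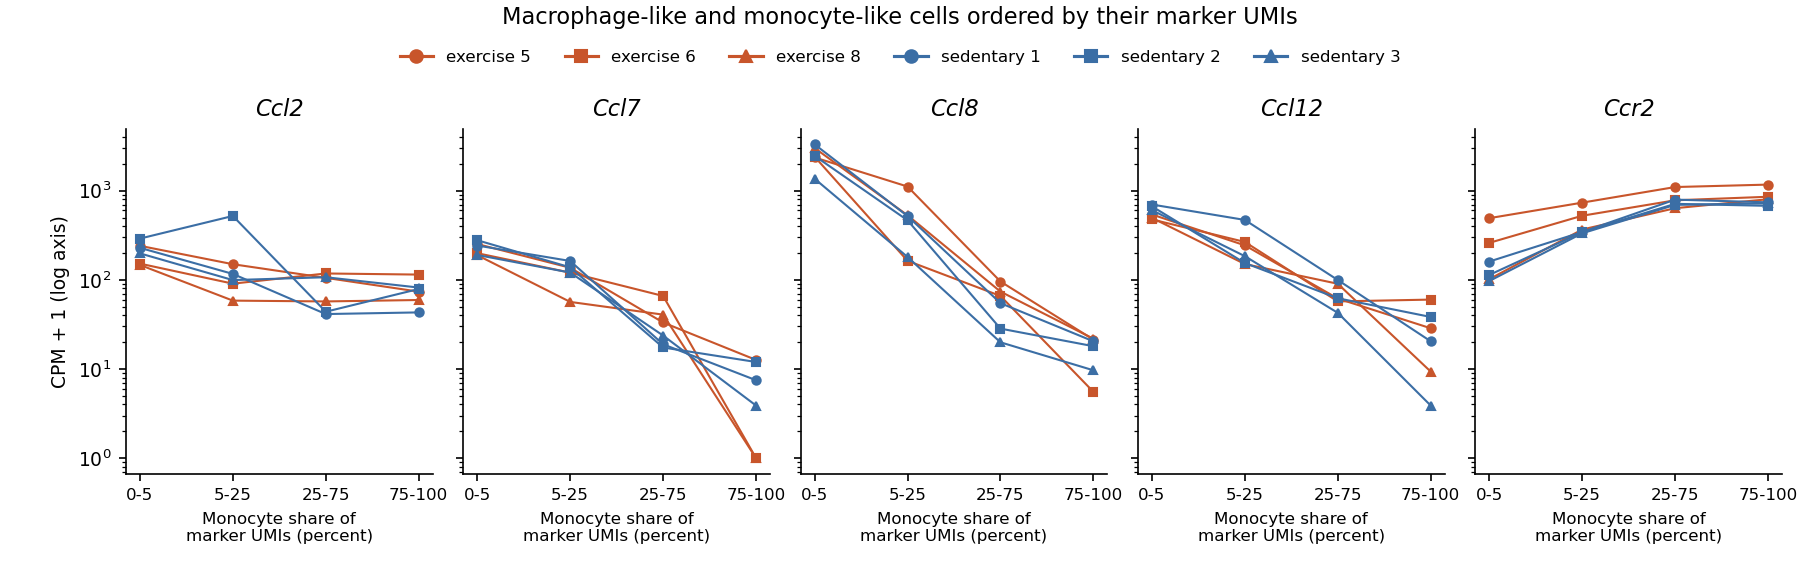
Level of each gene (CPM + 1, log axis) in macrophage-like and monocyte-like cells, in 4 bins of the monocyte share of their marker UMIs (percent), 1 line per library. Ccr2 is higher and the 4 ligands are lower in the highest than in the lowest bin in all 6 libraries, with mean Ccl8 at 2483 CPM in the lowest and 15.2 CPM in the highest bin.

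Within single macrophage-like cells, thinned to 2000 UMIs, Ccl8 went with Ccl12, and Ccr2 was found less often where Ccl8 was. Of cells with Ccl8, 46.5% also had Ccl12, against 21.0% of cells without Ccl8. Ccr2 was found in 10.8% of cells with Ccl8, against 44.4% of those without, and the share was lower in each of the 6 libraries. Ccl7 and Ccl2, neighbours on the chromosome, also went together: 49.1% of macrophage-like cells with Ccl7 had Ccl2, against 14.8% of those without. In the main population the shares were 67.6% and 15.4%. These are descriptions of cells within libraries, without a test. Macrophage-like cells with at least 4 of 6 dividing markers (428 cells) had 196 ± 165 CPM of Ccr2, against 335 ± 171 CPM in those with 0 or 1, lower in 6 of 6 libraries (exact p 0.0312, adjusted 0.156). None of the 4 ligands differed beyond its spread between these subsets (smallest exact p 0.188).

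Within the main population, Ccl2 and Ccl7 were uneven across 8 clusters that were made without the 5 genes. Ccl2 averaged 759 ± 323 CPM in cluster 5, led by the neutrophil chemokine Cxcl1, the haem oxygenase Hmox1 and the endoplasmic reticulum oxidase Ero1l. It averaged 678 ± 327 CPM in cluster 8, led by the interferon-induced genes Cxcl10, Rsad2 and Ifit3b, and 576 ± 560.3 CPM in cluster 12, led by the bone matrix genes Ibsp and Dmp1. The value of cluster 12 rested on exercise 5 at 1607 CPM, without which the mean was 369.9 ± 271 CPM, with exercise 6 and 8 at 103 and 131 CPM. In exercise 5 cluster 12 made up only 1.22% of the population's cells. The other 5 clusters stood at 100.2 to 202 CPM. Clusters 5 and 8 held on average 29.8% and 18.8% of the population's Ccl2 UMIs with 10.9% and 8.53% of its cells. The cell share of cluster 5 ran from 1.07% in exercise 6 to 19.5% in sedentary 2. Ccl7 was highest in the same clusters, at 65.5 ± 34.7 CPM in cluster 5 and 65.3 ± 55.1 CPM in cluster 8, against 9.41 to 28.7 CPM elsewhere. Without exercise 5, clusters 0, 1, 2, 3 and 12 averaged 5.79 to 18.0 CPM of Ccl7. Exercise 5 had the highest Ccl2 of the 6 libraries in 8 of 8 clusters, and with sedentary 2 it made up the highest pair in 7. In 0 of the 8 clusters did the exercise and sedentary libraries separate. Clusters were cut from the most variable of the other genes of the same cells, so their order is a description, without a test.

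**Figure D4:**
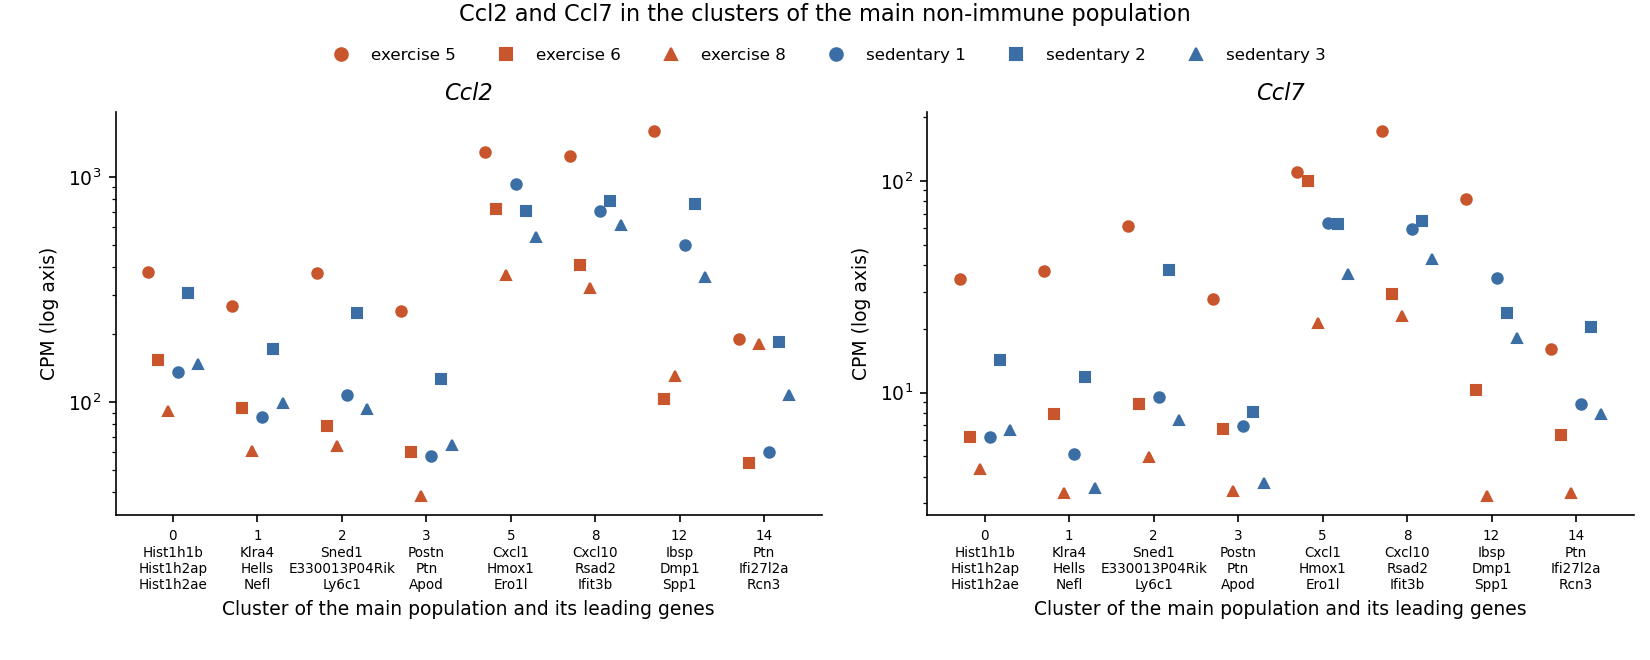
Level of Ccl2 and Ccl7 (CPM, log axis) in 8 clusters of the main non-immune population, each named by its number and 3 leading genes, 1 point per library, exercise libraries left of sedentary libraries. Clusters 5, 8 and 12 have the highest mean Ccl2 (759, 678 and 576 CPM), and exercise 5 is the highest library for Ccl2 in all 8.

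Exercise against sedentary, the comparison of the study, showed no change of these 5 genes over whole tumours that passed the test. Summed over all kept cells, Ccl2 was 444, 143 and 127 CPM in exercise 5, 6 and 8, against 196, 379 and 219 CPM in sedentary 1, 2 and 3. Exercise 5 and sedentary 2 were highest in their groups, and the groups overlapped. Ccl2 averaged 238 ± 179 CPM in exercise and 265 ± 99.6 CPM in sedentary libraries (SD, n = 3 each), a log2 fold change of -0.18 (SE 0.50, adjusted p 0.9998) in edgeR's quasi-likelihood test with Benjamini-Hochberg adjustment over 15482 genes. Ccl7 averaged 30.1 ± 27.1 CPM in exercise and 25.5 ± 9.79 CPM in sedentary libraries, with a log2 fold change of 0.21 (SE 0.59, adjusted p 0.9998) in edgeR. Ccl8, the macrophage-like ligand, was 133, 58.1 and 107 CPM in exercise 5, 6 and 8, against 98.8, 89.2 and 41.3 CPM in sedentary 1, 2 and 3, and the groups overlapped. It averaged 99.5 ± 38.1 CPM in exercise and 76.5 ± 30.8 CPM in sedentary libraries, with 0.38 (SE 0.37, adjusted p 0.9998), and Ccl12 19.3 ± 9.06 CPM in exercise and 19.98 ± 3.77 CPM in sedentary libraries, with -0.064 (SE 0.31, adjusted p 0.9998). Ccr2 was 92.3, 22.8 and 16.7 CPM in exercise 5, 6 and 8, against 17.0, 46.2 and 14.8 CPM in sedentary 1, 2 and 3, with 0.73 (SE 0.71, adjusted p 0.9998). Its mean difference rested on exercise 5: without that library the log2 fold change was -0.37. None of the 5 genes passed, where 0% of all genes tested did; none separated the groups, where 6.79% did. At an unadjusted p under 0.05 there were 413 genes (2.67%), none of the 5 among them, and DESeq2 called 18 genes, again none of the 5. In a sum over a whole tumour, fewer cells of a class and less RNA per cell cannot be told apart.

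Within classes, 29 of 40 pairs of a gene and a class had enough counts for the edgeR test, and none passed (smallest adjusted p 0.190). The share of all tested genes that passed was 0% in macrophage-like, 0% in monocyte-like, 0% in MHC-II-high, 0% in mast- and basophil-like, 0.00695% in main-population, 0.0105% in T-like, 0.0186% in NK-like and 0.265% in neutrophil-like cells. DESeq2 likewise called none of the 5 in any of the 8 classes. At an unadjusted p under 0.05 there were 6 such pairs: Ccl2 and Ccl12 in macrophage-like, Ccr2 in monocyte-like, Ccl2 in MHC-II-high, Ccl2 in neutrophil-like and Ccl12 in T-like cells. Of all genes, 4.1% had such a p in macrophage-like, 4.47% in monocyte-like, 5.85% in MHC-II-high, 8.44% in neutrophil-like, 4.66% in T-like, 3.51% in NK-like, 10.7% in mast- and basophil-like and 4.08% in main-population cells. The groups did not overlap in 2 of the 29 pairs. The first was Ccr2 in monocyte-like cells, where the 3 exercise values given above (lowest 806 CPM) were above the 3 sedentary ones (highest 721 CPM). Its log2 fold change was 0.50 (SE 0.16, unadjusted p 0.00747, adjusted p 0.999, edgeR), in a class where 8.85% of genes separated the groups. The other was Ccl12 in macrophage-like cells, at 439, 419 and 438 CPM in exercise 5, 6 and 8, against 657, 454 and 509.9 CPM in sedentary 1, 2 and 3. All exercise values were below the sedentary ones, with a log2 fold change of -0.33 (SE 0.13, unadjusted p 0.0333, adjusted p 0.983, edgeR); 9.11% of genes separated the groups there. The share of genes that did so was 10.5% in MHC-II-high, 15.4% in neutrophil-like, 17.6% in mast- and basophil-like, 9.46% in T-like and 8.61% in main-population cells, where none of the 5 genes did.

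No other difference within a class passed either, and the largest rested on few cells. In the main population Ccl2 averaged 263 ± 216 CPM in exercise and 278 ± 111 CPM in sedentary libraries, a log2 fold change of -0.088 (SE 0.53, adjusted p 0.999) in edgeR, and Ccl7 24.1 ± 26.6 CPM in exercise and 19.4 ± 9.30 CPM in sedentary libraries, with 0.30 (SE 0.72, adjusted p 0.999). In macrophage-like cells Ccl2 was 211, 136 and 131 CPM in exercise 5, 6 and 8, against 211, 314 and 175 CPM in sedentary 1, 2 and 3, and exercise 5 lay within the sedentary range. It averaged 159 ± 44.4 CPM in exercise and 233 ± 71.9 CPM in sedentary libraries, with -0.56 (SE 0.24, adjusted p 0.983), Ccl7 had a log2 fold change of -0.13 (SE 0.13, adjusted p 0.983), Ccl8 0.19 (SE 0.29, adjusted p 0.985) and Ccr2 0.70 (SE 0.39, adjusted p 0.983). Ccr2 in macrophage-like cells was 579.9, 329 and 149.98 CPM in exercise 5, 6 and 8, against 204, 269.9 and 172 CPM in sedentary 1, 2 and 3, and the groups overlapped. In NK-like cells Ccr2 was 656, 588 and 433 CPM in exercise 5, 6 and 8, against 444, 530.2 and 568 CPM in sedentary 1, 2 and 3. In MHC-II-high cells it was 768, 357 and 386 CPM in exercise 5, 6 and 8, against 273, 492 and 361 CPM in sedentary 1, 2 and 3, and the groups overlapped in both classes. Ccr2 had log2 fold changes of 0.38 (SE 0.29, adjusted p 0.935) in MHC-II-high, 0.067 (SE 0.17, adjusted p 0.999) in NK-like and 0.050 (SE 0.36, adjusted p 0.9996) in T-like cells. Mast- and basophil-like cells had log2 fold changes of -0.56 (SE 0.39, adjusted p 0.545) for Ccl2 and -0.22 (SE 0.35, adjusted p 0.798) for Ccl7. The largest of the fold changes, those of Ccl2 in neutrophil-like cells at -2.12 (SE 0.69, adjusted p 0.190) and in MHC-II-high cells at -2.0 (SE 0.66, adjusted p 0.790), rested on the single cells of sedentary 1 described above. Without sedentary 2 the neutrophil-like one passed (edgeR adjusted p 0.0135), and without a filter on low counts both passed (0.00705 in neutrophil-like and 1.04e-18 in MHC-II-high cells; over all alternatives 0.00705 to 0.986 and 1.04e-18 to 0.9995). Without sedentary 1 the neutrophil-like log2 fold change was -0.35, and the MHC-II-high one -0.42.

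**Figure D5:**
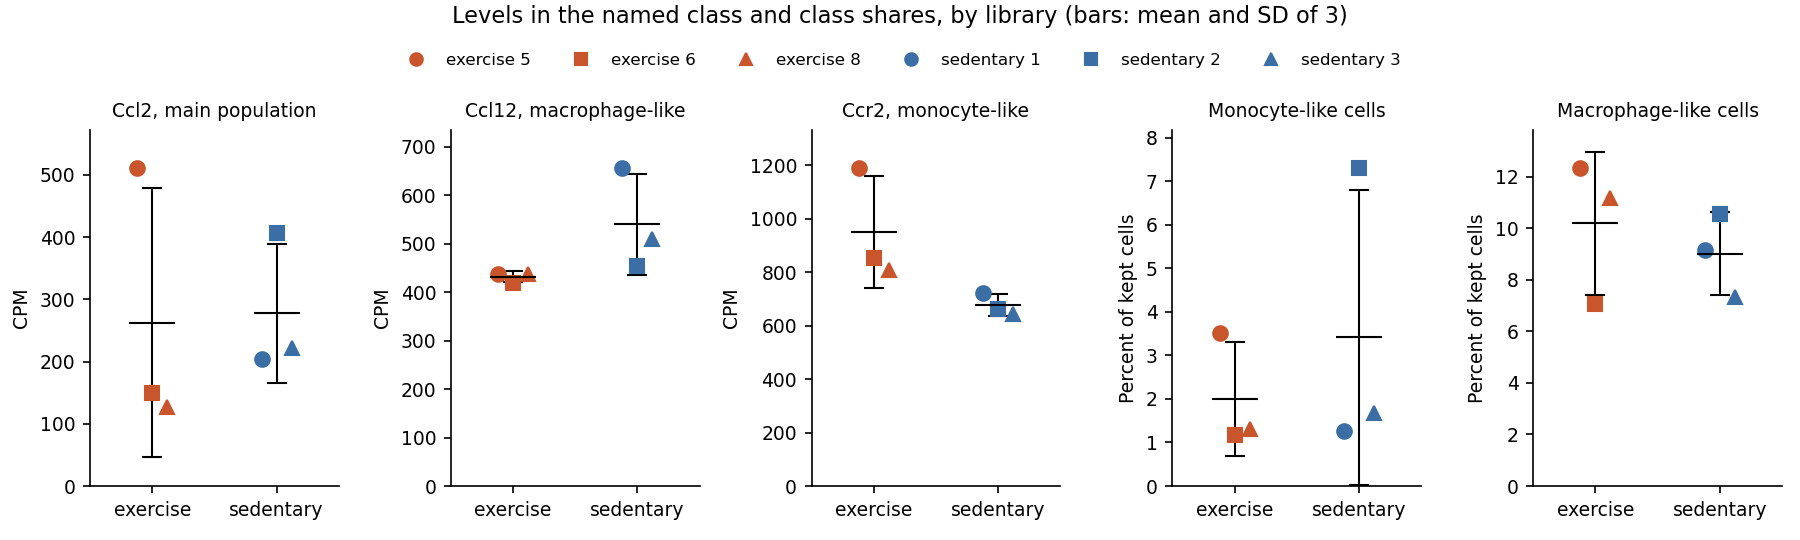
Level of 1 gene in its class (CPM) and share of kept cells (percent) by library, exercise left of sedentary, with bars for the mean and SD of 3 libraries. Exercise 5 and sedentary 2 are the highest of their groups for Ccl2 in the main population (512 and 406 CPM) and for the monocyte-like share (3.51% and 7.31%).

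Beside these levels stood the shares of monocytes and macrophages. Monocyte-like cells as a share of kept cells made up 3.51, 1.17 and 1.30% in exercise 5, 6 and 8, against 1.26, 7.31 and 1.67% in sedentary 1, 2 and 3. Exercise 5 and sedentary 2 were highest and the groups overlapped (means 1.99 ± 1.31% in exercise and 3.41 ± 3.38% in sedentary libraries, exact permutation p 0.6). Macrophage-like cells made up 12.4, 7.07 and 11.2% in exercise 5, 6 and 8, against 9.15, 10.6 and 7.35% in sedentary 1, 2 and 3, with means of 10.2 ± 2.77% and 9.02 ± 1.60% (exact permutation p 0.6). MHC-II-high cells averaged 4.13 ± 1.89% in exercise and 2.93 ± 1.92% in sedentary libraries (exact permutation p 0.5). In edgeR's test on cell counts the log2 fold changes were -0.78, 0.18 and 0.49 for monocyte-like, macrophage-like and MHC-II-high cells, and the smallest adjusted p over all classes was 0.798. Across the 6 libraries, Ccl2 in the main population and the monocyte-like share had Pearson's r of 0.745 (exact permutation p 0.0806, adjusted 0.806 over 10 relations) and Spearman's rho of 0.771 (exact permutation p 0.103, adjusted 0.940). Without exercise 5 and sedentary 2, r was 0.613. Over all kept cells these libraries had the lowest median depth and the most immune cells. Within the main population, however, their cells were the deepest. The medians there were 21452 UMIs in exercise 5 and 25428 in sedentary 2, against 15173 to 19274 in the remaining libraries. The part of depth in the relation was not tested. For the macrophage-like share r was 0.519 (exact permutation p 0.317) and rho 0.371 (exact permutation p 0.497), and r was -0.111 without exercise 5 and exercise 6. None of the relations passed. The remaining ones, of Ccl7, Ccl8 and Ccl12 in macrophage-like and Ccr2 in monocyte-like cells, had r between -0.310 and 0.545. Their adjusted exact permutation p was at least 0.824. Without exercise 5 and sedentary 2, r with the monocyte-like share was -0.880 for Ccr2, -0.789 for Ccl8, -0.362 for Ccl7 and 0.151 for Ccl12. Without exercise 5 and exercise 6, r with the macrophage-like share ran from -0.498 for Ccl12 to 0.684 for Ccr2.

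Other genes of the same signalling had their own patterns. Ccr1, a receptor shared by CCL7, was highest at 933 ± 210.2 CPM in neutrophil-like cells. Ccrl2, listed with the receptors and scavengers, was highest at 483 ± 128 CPM in neutrophil-like cells, while Ackr2 of the same list stayed at or under 0.0596 CPM in the 8 classes. Of the inducers, Il1b was highest at 11056 ± 3633 CPM in neutrophil-like cells, Ifng at 226 ± 82.1 CPM in T-like cells and Tnf at 37.4 ± 27.7 CPM in neutrophil-like cells. Over whole tumours 0 of 10 tested other CC chemokines passed in edgeR, and all 10 had a higher mean in exercise libraries, with a fitted log2 fold change above 0 for 9 (median 0.67, against 0.0084 for all genes). Exercise 5, rich in immune cells, was the highest of the 6 libraries for 8 of them, and the mean of exercise 6 and 8 was above the sedentary mean for 4. None passed among 4 receptors and scavengers (median -0.010), 8 genes of other recruitment and growth axes (median 0.13), 13 inducing cytokines and transcription factors (median -0.083) or 5 glycan partners of chemokines (median -0.23). Within the 8 classes, 1 gene of these lists passed. Ccl4, a CC chemokine of activated lymphocytes and myeloid cells, in NK-like cells was 289, 157 and 148 CPM in exercise 5, 6 and 8, against 23.8, 48.8 and 27.1 CPM in sedentary 1, 2 and 3. All exercise values were above all sedentary ones, as for 8.7% of genes there. From 349 UMIs in all, Ccl4 averaged 198 ± 78.7 CPM in exercise and 33.2 ± 13.6 CPM in sedentary libraries and rose by 2.46 (log2, SE 0.29, adjusted p 0.000943, edgeR). Over the alternatives the log2 fold change was 2.07 to 2.84 and the adjusted p 3.91e-23 to 0.0922, above 0.05 only without sedentary 3. In other classes Ccl4 did not pass, and its fitted fold change was below 0 in some: macrophage-like cells had 71.7 ± 19.6 CPM in exercise and 166 ± 26.1 CPM in sedentary libraries, without overlap (log2 fold change -1.22, unadjusted p 0.000215, adjusted p 0.983, edgeR). In MHC-II-high cells the log2 fold change was -1.03 (unadjusted p 0.00882, adjusted p 0.736, edgeR).

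Across the 8 classes, genes were named whose mean log2(CPM + 1) was among the 5 that followed each member most closely, of 10526 genes, as a description over 8 points that share libraries and depth. For Ccl8 they were Fcrls, Ms4a14, Ighg2b, Folr2 and Myh10 (Pearson's r 0.977 to 0.984). For Ccl12 they were Ms4a7, Mrc1, Mmp13, Pf4 and Arg1 (r 0.963 to 0.984), of which Ms4a7 and Mrc1 are macrophage markers of the class rule. For Ccr2 they were Whamm, Tmem229b, Dok2 and Irf8 (r 0.972 to 0.983), for Ccl7 Atp6v0d2, Rarres1, Tpp1, 1700003F12Rik and 3222401L13Rik (r 0.933 to 0.983) and for Ccl2 Rnf7, Spred1, Camk1 and 2700046G09Rik (r 0.922 to 0.958). Among the members, Ccl8 and Ccl12 had r of 0.868 and Ccl2 and Ccl7 0.842, while Ccl2 and Ccr2 had -0.585.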

How the data were processed

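Single-cell RNA libraries (10x Chromium 3' chemistry) of 6 tumours were deposited by the authors as counts of UMIs per gene and barcode, not normalized; per the submitters' processing notes Cell Ranger 6.1.2 was used with genome build mm10, while the matrix headers name software version 3.1.0. The role of each is not given in the sources used here. Barcodes needed 300 genes and 500 UMIs or more, with a mitochondrial share up to 20%, and doublets were called with Scrublet (scanpy 1.11.5), which marked 0.946% to 2.42% of a library. Kept cells held 92579744 to 126481207 UMIs a library. A cell took the class whose list had the most detected markers, at least 4 and more than any other list; non-immune classes could have at most 2 of 8 pan-immune markers. That rule was set after marker counts were seen, and the 5 genes and all lists were chosen with earlier results of these data known. Names are rebuilt from markers, so class borders are not the authors'.

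UMIs were summed per library and class; CPM are UMIs per 1000000 UMIs of those cells. Exercise and sedentary sums, 1 tumour being 1 replicate, were compared with edgeR 4.0.16 (quasi-likelihood, TMM, filterByExpr, Benjamini-Hochberg adjustment, threshold 0.05) in R 4.3.3, and with DESeq2 1.42.0 as an alternative. The edgeR steps were tested on simulated counts. For whole tumours they recovered 50% of 2-fold and 77% of 4-fold changes, with 10 false calls. In main-population, macrophage-like and monocyte-like cells they recovered 58% to 62% and 91% to 94%, with 8 to 12 false calls. Classes of the same libraries were compared on log2(CPM + 1) by exact two-sided sign-flip tests, shares and relations by exact two-sided permutation tests. Clusters (leidenalg 0.10.2) were made without the 5 genes. Cells were thinned to 1000 or 2000 UMIs for shares of cells. Promoters were aligned with Biopython 1.88. Alternatives were no filter on low counts, other size factors, DESeq2, each library left out, a mitochondrial limit of 10%, all barcodes, doublets kept, 1 more marker, classes from clusters and a pseudocount of 0.1. Genes named are the 5, those of 5 lists of related genes, and the 5 most alike for each among genes reaching 10 CPM in a class; leading genes of clusters were named after their values were seen. Means without the highest cells or without 1 library were added after seeing the data. Gene positions are from the GRCm38 annotation. Protein sequences were not used here, and some genes that these rules name are not reported here. Counts are from 3' tags, so levels are not compared between genes.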

Additional observations from a re-analysis of the deposited data

How the results depend on the processing

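The median depth of macrophage-like (4314 UMIs), neutrophil-like (1003) and mast- and basophil-like cells (994) and the 3 tumours a group limit what can be detected, and a difference that did not pass is not shown to be absent. No paired analysis was possible because the exercise and sedentary libraries share no number. Of 141 recomputed fold changes (other than with 1 library left out), 133 kept direction and side of the threshold. With exercise 5 and sedentary 2 left out (chosen after seeing the data), the log2 fold changes turned for Ccl7 in whole tumours (-0.45) and the main population (-0.65) and for Ccr2 in NK-like (-0.051) and T-like cells (-0.62). They also turned for Ccl2 in MHC-II-high cells with classes from clusters (0.16) and for Ccl7 in mast- and basophil-like cells with a mitochondrial limit of 10% (0.19). Leaving out 1 library at a time gave log2 fold changes of -0.95 to 0.16 for Ccl2, -0.80 to 0.56 for Ccl7, -0.45 to 0.20 for Ccl12 and -0.37 to 1.43 for Ccr2 in whole tumours, -0.99 to 0.30 for Ccl2 and -1.12 to 0.78 for Ccl7 in the main population, -0.067 to 0.62 for Ccl8 in macrophage-like and -0.48 to 0.072 for Ccl7 in mast- and basophil-like cells. For Ccr2 it gave -0.053 to 0.63 in MHC-II-high, -0.70 to 0.43 in T-like and -0.055 to 0.21 in NK-like cells. The exercise minus sedentary difference then ran, in percentage points, from -2.50 to 0.528 for the monocyte-like share, from -8.10 to 6.79 for the main population, and for the main population's share of UMIs from -1.01 to 2.64 for Ccl2 and from -8.94 to 3.66 for Ccl7. With classes from clusters that of Ccl2 was -0.232, the mean share of Ccl2 from the main population 95.3%, of Ccl12 from macrophage-like cells 91.6% and of Ccr2 from them 62.9%.

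Genes called by edgeR of all genes numbered 0 in macrophage-like, 0 in monocyte-like, 0 in MHC-II-high, 5 in neutrophil-like, 0 in mast- and basophil-like, 1 in T-like, 1 in NK-like and 1 in main-population cells. Without the filter on low counts they were 20, 46, 128, 12, 7, 84, 21 and 2 in the same order, with 1 of the 5 genes called in MHC-II-high and 1 in neutrophil-like cells (Ccl2 in both). DESeq2 called 18 in whole tumours, 5 in macrophage-like, 1 in monocyte-like, 2 in MHC-II-high, 2 in T-like and 31 in main-population cells. With 1 library left out the counts were 0 to 1 in macrophage-like, 0 to 1 in monocyte-like, 0 to 3 in MHC-II-high, 1 to 15 in neutrophil-like (0 to 1 of the 5 genes), 0 to 4 in mast- and basophil-like, 0 to 1 in T-like, 0 to 3 in NK-like and 0 to 1 in main-population cells. Neutrophil-like counts were 1 with DESeq2's size factors in edgeR, 2 without exercise 5 and sedentary 2, 3 with the mitochondrial limit of 10%, 1 with 1 more marker required and 1 with classes from clusters. The same settings gave 2 in MHC-II-high cells without exercise 5 and sedentary 2, 1 in macrophage-like cells with classes from clusters, and 0 in T-like cells without those libraries, with the mitochondrial limit or with 1 more marker, and in the main population without those libraries, with 1 more marker or with classes from clusters. Of the 35 neighbouring pairs of classes, the order turned for Ccl7 between neutrophil-like and monocyte-like (-0.28) and T-like and NK-like cells (-0.0077) and for Ccl8 between neutrophil-like and MHC-II-high cells (-0.29) on the log2(CPM + 0.1) scale, and with 1 more marker for Ccl2 between neutrophil-like and MHC-II-high (0.038) and Ccl7 between monocyte-like and T-like cells (-0.12). With MHC-II-high cells added along the marker range (chosen after seeing the data) Ccl2 in the highest bin differed from the lowest by a log2 difference of -1.16 with an adjusted exact p of 0.0938. Only in sedentary 1 was Ccl2 then higher in the highest bin of the range. Restricting that range of macrophage-like and monocyte-like cells to those with at least 5000 UMIs could give no test over 6 libraries. Exercise 6 and exercise 8, 2 of the 6, then had no cells in the highest bin, which held 121 cells. In the other 4 libraries Ccr2 was higher and each ligand lower in the highest than in the lowest bin. The causes of the changes under these alternatives were not tested.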
